A study of Mus musculus with 4 samples.

Results

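Heme synthesis, heme breakdown and iron handling were followed through 9 genes in nuclei of sorted liver immune cells, before and during a diet that blocks heme synthesis. The genes were chosen for their place in these pathways, but with earlier results of these data known. They were the heme synthesis enzymes Alas1, Alad, Urod and Fech, the heme oxygenase Hmox1, the ferritin subunits Fth1 and Ftl1, the iron exporter Slc40a1 and the transferrin receptor Tfrc. All 9 were found among the 32285 genes of the RNA matrices. Of 127216 chromatin regions shared by both days, 33 lay within 10 kb of their start sites.

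Male C57BL/6J mice, 6 to 12 weeks old by the study's methods and without any engineered allele named in the labels, received chow with 0.1% DDC (3,5-diethoxycarbonyl-1,4-dihydrocollidine) for 0 days (D0) or 5 days (D5). Living liver cells were sorted as CD45+ CD64- CD11c+, a gate meant for dendritic cells, and RNA and open chromatin were read from the same nuclei (10x Multiome). Each day was 1 library, and the number of mice behind a library is not given in the sources used here. A difference between the days therefore cannot be told apart from a difference between libraries, no test was possible, and every interval below is an exact 95% interval that covers counting error only.

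Heme is built in a chain of enzymes that starts in the mitochondrion with ALAS1, the rate-limiting step outside red cells, passes through ALAD and UROD in the cytosol and ends with ferrochelatase (FECH), which places iron in protoporphyrin. DDC leads to a blocked ferrochelatase and to porphyrin deposits in the liver, and heme itself represses Alas1 in hepatocytes. Macrophages take up heme from red cells, open it with heme oxygenase 1, store the iron in ferritin or release it through ferroportin (Slc40a1), while the transferrin receptor brings iron into dividing cells.

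After filters, 10980 nuclei of D0 and 19834 of D5 were grouped into 24 clusters, and 8 classes named from marker genes were compared. They were cDC1-like (1727 nuclei at D0 and 2952 at D5), cDC2-like (1725 and 5542), Ccr7+ DC-like (331 and 1231), pDC-like (2326 and 2012), macrophage-like (796 and 1390), nonclassical monocyte-like (109 and 167), NK cell-like (1443 and 1106) and T cell-like (343 and 425). A further 2145 nuclei at D0 (19.5%) and 4914 at D5 (24.8%) lay in clusters without a name and were not compared. The libraries held 44496348 and 94374499 UMIs (unique molecular identifiers, each 1 captured RNA molecule), with medians of 1799 and 2790 per called barcode. They shared 591 barcodes, 3.63% of those of D0 and 2.12% of those of D5. In macrophage-like nuclei the summed level of 10 macrophage markers was 1296 and 1609 CPM (UMIs of a gene or list per 1000000 UMIs of the class and day), against at most 320 CPM in any other class compared, but that of 9 cDC2 markers was higher still, 1990 and 1891 CPM, and their part in the results was not tested. T cell-like nuclei also carried NK cell markers at 5300 and 4853 CPM, close to the 6512 and 5551 CPM of NK cell-like nuclei. Markers of red blood cell precursors were at most 3.86 CPM in any class.

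A level in CPM was compared within a gene only. A gene was called higher or lower in a class when the days differed at least 1.5-fold and both days together held at least 50 UMIs. Of the 72 pairs of a gene and a class, 48 had 50 UMIs or more. Among these, 15 were called higher at D5 (31.2%) and 1 was called lower (2.08%). Over all genes and the same classes, 5.98% of the 60943 pairs were called higher and 14.6% lower. The median log2 ratio of D5 to D0 was 0.16 over the 48 pairs, while the medians of all genes tested lay between -0.21 and -0.04 by class. Of the 15, 11 belonged to the ferritin genes. In macrophage-like nuclei all 9 genes had 50 UMIs or more, and 5 of them were called higher and 1 lower, against 4.63% and 18.8% of the 8417 genes tested in that class. Fewer cells of a kind inside a class and less RNA per cell cannot be told apart in such sums.

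**Figure D1:**
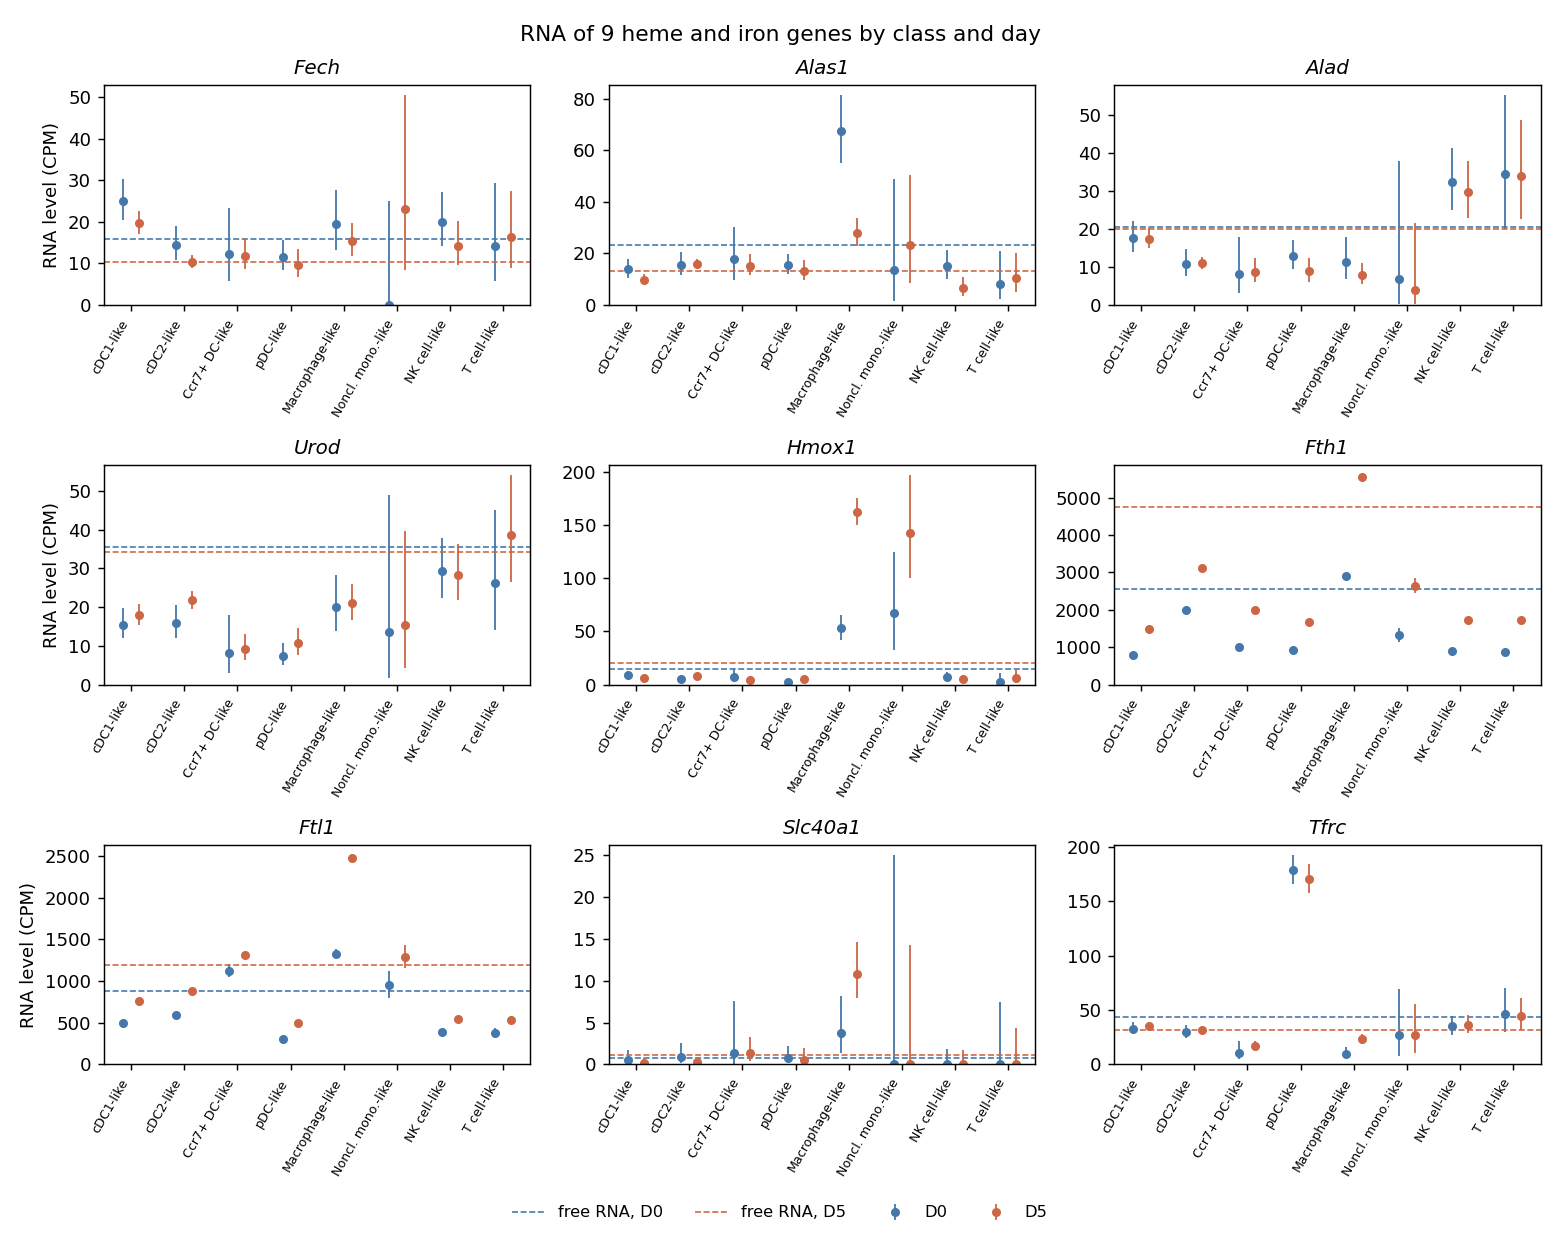
RNA level of the 9 genes, in CPM, at D0 (blue) and D5 (red) in the 8 classes. Points are sums over all nuclei of a class, bars are exact 95% Poisson intervals and dashed lines give the level in barcodes without a nucleus; Hmox1 stood above its dashed lines in macrophage-like and nonclassical monocyte-like nuclei only, and Fth1 was higher at D5 in all 8 classes.

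Alas1, which sets the pace of heme synthesis, was the gene called lower. In macrophage-like nuclei it went from 67.3 CPM (107 UMIs) to 27.9 CPM (113 UMIs), a log2 ratio of -1.27 (-1.67 to -0.88). At D0 this class stood far above every other, none of which exceeded 17.8 CPM, and at D5 it was still the highest, with an interval that overlapped that of nonclassical monocyte-like nuclei. The other tested classes showed log2 ratios of -0.50 (-0.98 to -0.00) in cDC1-like, -0.23 in pDC-like, -0.22 in Ccr7+ DC-like and 0.01 in cDC2-like nuclei. In NK cell-like nuclei the log2 ratio was -1.22, but on 44 UMIs in all. Hepatocyte transcripts moved the same way as Alas1 in macrophage-like nuclei, where 6 hepatocyte markers together were at 93.7 and 25.6 CPM at D0 and D5, and in RNA outside nuclei Alas1 itself was at 23.2 and 13.2 CPM. In the 703 and 1301 macrophage-like nuclei without any UMI of these markers, Alas1 was at 58.5 CPM at D0 and 27.0 CPM at D5, a log2 ratio of -1.11 (-1.55 to -0.68). The call was kept in all 13 of the other settings that gave a value, with log2 ratios from -1.63 to -0.96.

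The enzymes between Alas1 and the last step were called in no class. Alad, which joins the first porphyrin precursors, had its highest levels in T cell-like nuclei, with 34.4 and 33.8 CPM at D0 and D5, and in NK cell-like nuclei, with 32.4 and 29.8 CPM. These lymphocyte classes lay above all dendritic and myeloid classes at both days, which stayed between 3.86 and 17.6 CPM, below Alad in RNA outside nuclei (20.5 and 20.02 CPM). The nonclassical monocyte-like values rest on 1 UMI per day, with upper limits of 37.7 and 21.5 CPM, so their place is not settled. At D0 the T cell-like interval (20.1 to 55.1 CPM) overlapped that of cDC1-like nuclei (13.8 to 22.1 CPM). Urod, which decarboxylates uroporphyrinogen, was likewise highest in the lymphocyte classes, with 29.4 and 28.4 CPM in NK cell-like and 26.3 and 38.5 CPM in T cell-like nuclei, with overlapping intervals. Apart from T cell-like nuclei at D5, all classes lay below Urod in RNA outside nuclei (35.6 and 34.1 CPM). Only in cDC2-like nuclei did its interval leave 0, with 15.8 CPM at D0 and 21.7 CPM at D5 (log2 0.45, 0.04 to 0.89), which is under the 1.5-fold minimum and over it (log2 0.71) with TMM scaling.

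Fech, the gene of the enzyme that DDC blocks, was lower at D5 in each of the 6 classes with 50 UMIs or more, and was called in none. Its log2 ratios ran from -0.49 to -0.05, and only the interval of cDC2-like nuclei stayed below 0, from 14.4 CPM at D0 to 10.3 CPM at D5 (log2 -0.49, -0.95 to -0.00). In cDC1-like nuclei, where its level at D0 was highest, it went from 24.9 to 19.7 CPM (log2 -0.34, -0.69 to 0.02). RNA outside nuclei showed a like difference, 15.9 against 10.2 CPM. At D0 the cDC2-like, Ccr7+ DC-like (12.3 CPM) and pDC-like (11.6 CPM) levels lay below that 15.9 CPM. TMM scaling brought the log2 ratio to -0.02 in cDC1-like, -0.04 in macrophage-like and 0.10 in Ccr7+ DC-like nuclei. With it the ratio was -0.12 in pDC-like, -0.23 in cDC2-like and -0.30 in NK cell-like nuclei.

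Of 14 further genes of heme synthesis and porphyrin transport, 63 gene and class pairs had 50 UMIs or more, with a median log2 ratio of -0.03. Of these pairs, 2 were called higher (3.17%) and 5 lower (7.94%), both below the 5.98% and 14.6% of all genes. Among the genes of this list with the highest median level were Tmem14c (porphyrinogen transport into the mitochondrion) and Slc25a38 (the glycine carrier that feeds the first step). Neither was called in a class. In macrophage-like nuclei Tmem14c was at 177 and 171 CPM and Slc25a38 at 27.7 and 25.2 CPM. The called pairs, named after their values were seen, were Ppox in cDC1-like and macrophage-like, Uros in cDC1-like, Abcb10 in macrophage-like and Abcg2 in cDC2-like nuclei, all lower, and Slc25a39 in cDC1-like and Ccr7+ DC-like nuclei, both higher.

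Hmox1, which opens heme to biliverdin, iron and carbon monoxide, differed most clearly between the days, and did so in macrophage-like nuclei. There it was at 52.8 CPM at D0 (84 UMIs) and at 163 CPM at D5 (659 UMIs), a log2 ratio of 1.62 (1.29 to 1.97), and it was called higher in all 13 of the other settings that gave a value (log2 1.45 to 1.93). Nonclassical monocyte-like nuclei had similar levels, 67.7 and 143 CPM, on only 10 and 37 UMIs (log2 1.07, 0.04 to 2.25). In the other 6 classes Hmox1 stayed between 2.03 and 9.02 CPM, below its level in RNA outside nuclei (15.1 and 20.2 CPM). By marker genes, free RNA was at most 11.7% and 15.8% of the UMIs of cDC1-like nuclei at D0 and D5. In cDC2-like nuclei it was at most 14.4% and 19.5%. A level below that of RNA outside nuclei is thus not by itself background. The log2 ratio in cDC2-like nuclei, 0.44, passed the call with TMM factors (0.70), at Leiden resolution 0.5 (1.54) and without shared barcodes (0.72).

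A UMI of Hmox1 was found in 63 of 796 macrophage-like nuclei at D0 (7.91%) and in 230 of 1390 at D5 (16.5%). With every nucleus thinned to 1000 UMIs the shares were 5.15% and 9.14%, against 0.693% and 0.542% in NK cell-like nuclei. The UMIs at D5 were concentrated: 36 nuclei with 5 or more UMIs held 334 of the 659 (50.7%), and 1 nucleus held 34. No nucleus at D0 held more than 4. Without the UMIs of the 10 richest nuclei of each day the levels were 35.2 and 123 CPM.

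Of the 10 macrophage markers, 5 known from resident liver macrophages (Kupffer cells) were looked at apart, a choice made after seeing the data. In macrophage-like nuclei Cd5l had 3 UMIs at D0 and 99 at D5 (1.89 and 24.4 CPM), Clec4f 3 and 80 (1.89 and 19.7 CPM), and Marco 0 and 42. The intervals of Vsig4 (5 and 23 UMIs, log2 0.85, -0.58 to 2.60) and Timd4 (1 and 8 UMIs, log2 1.65, -1.25 to 7.12) included 0. Of the other 5 markers, Adgre1 was lower at D5 (126 and 78.7 CPM, log2 -0.68, -0.94 to -0.41), Mrc1 was at 74.2 and 78.7 CPM (log2 0.08, -0.22 to 0.40), and C1qa, C1qb and C1qc had log2 ratios of 0.19, 0.51 and 0.28. Without the smaller macrophage-like cluster (99 nuclei at D0 and 15 at D5), C1qa, C1qb and C1qc had log2 ratios of 0.91, 0.97 and 0.99. Adgre1 was then at log2 -0.38 (-0.67 to -0.08) and Mrc1 at 0.22 (-0.12 to 0.56). The macrophage-like nuclei passed a sort against CD64, which Kupffer cells carry. The RNA of CD64 (Fcgr1) was nevertheless at 40.9 and 72.7 CPM in this class, against 8.06 and 19.0 CPM in cDC2-like and 2.49 and 6.87 CPM in NK cell-like nuclei. A UMI of the 5 Kupffer cell genes was found in 7 nuclei at D0 and in 28 at D5, and the 28 held 49 of the 659 Hmox1 UMIs. In the remaining macrophage-like nuclei Hmox1 was at 53.2 CPM at D0 and 153 CPM at D5 (log2 1.53, 1.20 to 1.87).

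**Figure D2:**
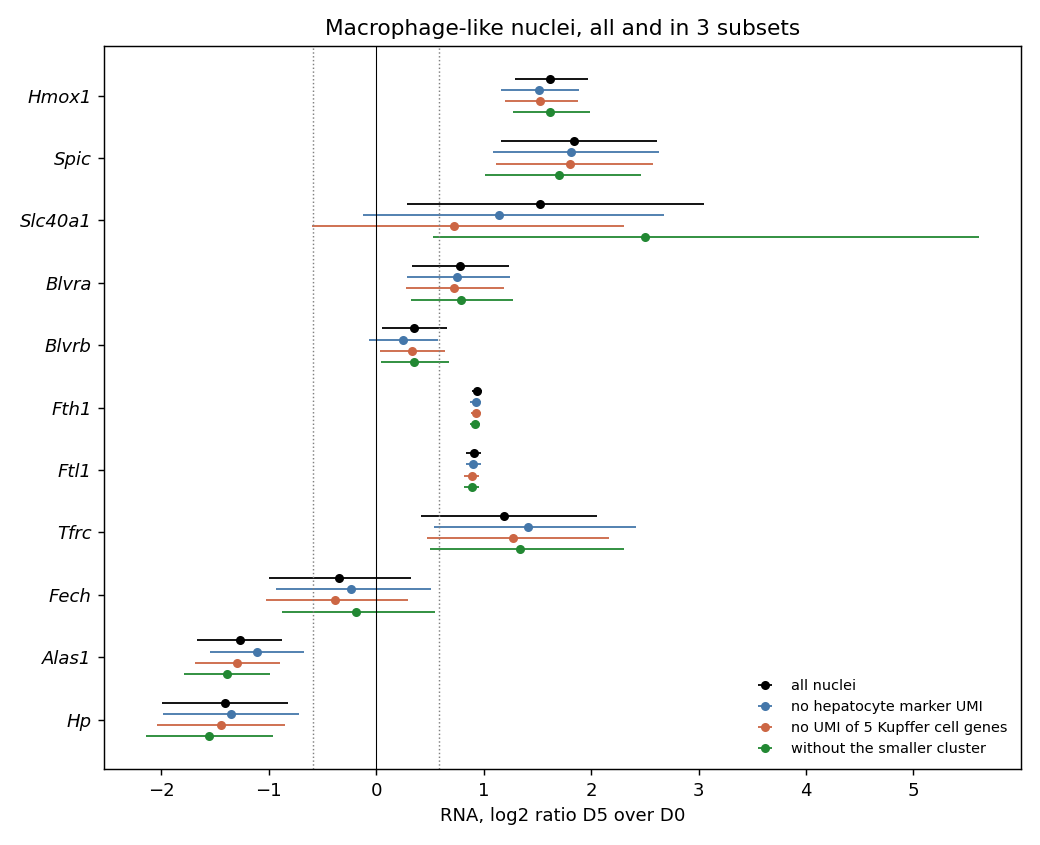
Log2 ratio of D5 to D0 of the RNA of 11 genes in macrophage-like nuclei, for all nuclei (black), for nuclei without a hepatocyte marker UMI (blue) or without a UMI of 5 Kupffer cell genes (red), and without the smaller of the 2 macrophage-like clusters (green). Bars are exact 95% intervals for counting error and dotted lines mark 1.5-fold. Hmox1 lay right and Alas1 left of the dotted lines in every subset, whereas the Slc40a1 interval crossed 0 in the blue and red subsets.

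Among 13 other genes of heme breakdown, capture and export, 57 pairs had 50 UMIs or more, with a median log2 ratio of -0.01. Of these pairs, 3 were called higher (5.26%) and 6 lower (10.5%), both below the 5.98% and 14.6% of all genes. The genes of this list with the highest median level were Nfe2l2 (NRF2, an activator of Hmox1), Bach1 (a heme-sensing repressor of Hmox1) and Hmox2 (the constitutive heme oxygenase). Nfe2l2 was called in none of 8 classes and was at 664 and 638 CPM in macrophage-like nuclei. Bach1 was called lower in cDC2-like nuclei, 351 CPM at D0 and 178 CPM at D5 (log2 -0.98, -1.08 to -0.88), while Hmox1 was at 5.76 and 7.82 CPM there. In macrophage-like nuclei Bach1 was at 197 and 169 CPM (log2 -0.22, -0.41 to -0.02). Hmox2 was called in no class and was at 79.2 and 86.6 CPM in macrophage-like nuclei.

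In macrophage-like nuclei, 3 more of this list were called, named after their values were seen. Spic, a heme-induced factor of iron-recycling macrophages, was at 11.9 CPM at D0 and 42.9 CPM at D5 (log2 1.84, 1.16 to 2.61). Nonclassical monocyte-like nuclei held Spic at 54.2 and 65.6 CPM, on only 8 and 17 UMIs (log2 0.27, -1.02 to 1.70). In macrophage-like nuclei Blvra, which reduces biliverdin to bilirubin, was at 32.7 and 56.0 CPM (log2 0.78, 0.34 to 1.24). Hp (haptoglobin), which binds free hemoglobin and is made chiefly by hepatocytes, was at 32.7 and 12.3 CPM (log2 -1.41, upper limit -0.82). Macrophage-like nuclei without a hepatocyte marker UMI held Hp at 31.1 and 12.2 CPM (log2 -1.35, -1.98 to -0.72). The remaining called pairs, also named after their values were seen, were Slc48a1 (a heme carrier, 5.46 to 16.1 CPM, log2 1.56, 0.12 to 3.48) and Blvra (log2 -0.89) in Ccr7+ DC-like, Cd163 (the hemoglobin scavenger receptor, 14.4 to 6.01 CPM) in cDC2-like, Flvcr1 (a heme exporter, log2 -0.68) in pDC-like and Blvrb (log2 -0.60, -1.44 to 0.22) in NK cell-like nuclei. The Blvrb call rests on 32 and 23 UMIs, and TMM scaling brought its ratio to -0.41, short of the call.

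Ferritin is the cell's iron store, built of heavy chains (Fth1), which oxidise iron, and light chains (Ftl1). Both genes have near-identical copies elsewhere in the genome, so their counts are uncertain in level. Fth1 was higher at D5 in all 8 classes and was called in all 8. It was highest in macrophage-like nuclei, at 2911 CPM at D0 and 5560 CPM at D5 (log2 0.93, 0.89 to 0.98). In cDC2-like nuclei it went from 2008 to 3115 CPM (log2 0.63, 0.60 to 0.67), the smallest ratio of the 8. The remaining dendritic classes went from 799 to 1479 CPM (cDC1-like), 996 to 1987 CPM (Ccr7+ DC-like) and 933 to 1668 CPM (pDC-like). Nonclassical monocyte-like nuclei went from 1314 to 2634 CPM, NK cell-like nuclei from 889 to 1727 CPM and T cell-like nuclei from 873 to 1723 CPM. Over all nuclei kept, unnamed clusters included, Fth1 was at 1272 and 2789 CPM (log2 1.13), above the ratio of every class. The part of the unnamed nuclei and of class sizes in this was not tested.

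The same difference was present outside the nuclei. In barcodes with at most 100 UMIs, which hold free RNA, Fth1 was at 2569 CPM at D0 and 4755 CPM at D5 (log2 0.89, 0.85 to 0.93), above the level of every class except macrophage-like. Free RNA could make up at most 11.7% to 26.4% of a class's UMIs, judged from marker genes that the class should lack. With that upper limit subtracted, the log2 ratio of Fth1 stayed at or above 0.61 in 6 classes (0.96 in macrophage-like, 1.22 in NK cell-like, 1.01 in Ccr7+ DC-like, 0.95 in nonclassical monocyte-like, 0.82 in T cell-like and 0.61 in cDC1-like nuclei), came to 0.51 in cDC2-like and turned to -0.28 in pDC-like nuclei. With free RNA estimated from hepatocyte transcripts instead, its subtraction made Fth1 lower at D5 in cDC1-like, pDC-like and NK cell-like nuclei, removed the call in cDC2-like and Ccr7+ DC-like nuclei and gave no value in macrophage-like nuclei. In these classes the hepatocyte-based shares were above the upper limits. At D0 and D5 they were 23.1% and 31.6% in cDC1-like nuclei, against limits of 11.7% and 15.8%. In NK cell-like nuclei they were 27.4% and 34.4%, against 22.5% and 20.8%. In pDC-like nuclei they were 22.9% and 42.7%, against 13.6% and 26.4%. At the upper limits themselves, the direction for Fth1 turned in pDC-like nuclei only. Shares below the limits were not tested.

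Ftl1 was higher at D5 in all 8 classes as well, with every interval above 0, and was called in 3. In macrophage-like nuclei it was at 1321 and 2474 CPM (log2 0.91, 0.84 to 0.97), in pDC-like at 308 and 496 CPM (log2 0.69) and in cDC1-like nuclei at 492 and 758 CPM (log2 0.62). The smallest ratio was that of Ccr7+ DC-like nuclei, which had the second highest level at D0, 1123 and 1306 CPM (log2 0.22, 0.11 to 0.33). The other 4 classes lay between log2 0.44 and 0.57. RNA outside nuclei was at 876 and 1196 CPM (log2 0.45), and with its upper limit subtracted the pDC-like ratio came to 0.16.

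Slc40a1, the only known iron exporter of mammalian cells, was highest in macrophage-like nuclei among the 8 classes, with 6 UMIs at D0 (3.77 CPM) and 44 at D5 (10.9 CPM), a log2 ratio of 1.52 (0.29 to 3.05). Over all nuclei there were 22 UMIs of it at D0 and 68 at D5. A further 6 of those 22 lay in 30 endothelial-like nuclei, a class too small to be compared. No UMI was found in NK cell-like, T cell-like or nonclassical monocyte-like nuclei, and the dendritic classes stayed at or below 1.41 CPM. The upper limit without a UMI was 25.0 and 14.2 CPM in nonclassical monocyte-like nuclei, and 7.47 CPM in T cell-like nuclei at D0. These limits exceed the macrophage-like levels of the same days, so the order of these classes is not settled there. Of the 44 UMIs, 19 came from the 28 nuclei of D5 that also held a UMI of a Kupffer cell gene. Without such nuclei the levels were 3.80 and 6.29 CPM (log2 0.73, -0.59 to 2.30). The call rests on exactly 50 UMIs and was lost in 7 of the 13 other settings that gave a value, though the direction held in all of them.

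Tfrc, through which cells take up transferrin-bound iron, was highest in pDC-like nuclei by a wide margin, at 179 CPM at D0 and 171 CPM at D5 (log2 -0.07, -0.22 to 0.09). T cell-like nuclei were next, at 46.6 and 44.3 CPM, followed by NK cell-like (34.9 and 36.6), cDC1-like (33.0 and 35.3) and cDC2-like nuclei (30.2 and 31.9), whose intervals overlap one another. Cycling markers did not follow this order, since 6 of them together were at 41.7 and 29.7 CPM in pDC-like nuclei and at 476 and 325 CPM in cDC1-like nuclei. In macrophage-like nuclei Tfrc was at 10.1 and 22.9 CPM (log2 1.19, 0.41 to 2.05), called higher but below the level in RNA outside nuclei (43.7 and 32.1 CPM). Ccr7+ DC-like nuclei met the call on 68 UMIs (10.9 and 16.9 CPM, log2 0.63, -0.44 to 1.91), with a ratio of -0.70 after thinning to 1000 UMIs.

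Among 25 other genes of iron uptake, storage and control, 101 pairs had 50 UMIs or more. Of these, 3 were called higher (2.97%) and 16 lower (15.8%), with a median log2 ratio of -0.12, so the share called lower was near the 14.6% of all genes. Slc11a1 (NRAMP1, which moves iron out of the phagosome) was called lower in 3 classes, from 39.9 to 8.54 CPM in cDC1-like (log2 -2.22, -2.62 to -1.84), from 440 to 228 CPM in nonclassical monocyte-like and from 6.05 to 3.38 CPM in cDC2-like nuclei. Trf (transferrin) was also called lower in 3 classes, from 137 to 87.5 CPM in cDC1-like, from 209 to 119 CPM in cDC2-like and from 93.2 to 61.9 CPM in T cell-like nuclei. In macrophage-like nuclei neither was called, with 136 and 110 CPM for Slc11a1 and 173 and 198 CPM for Trf. The iron chaperones Pcbp1 and Pcbp2 were called in no class. Hfe, a regulator of iron sensing, was called higher in Ccr7+ DC-like nuclei, from 65.6 to 119 CPM (log2 0.86, 0.43 to 1.32).

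Further called pairs of this list were named after their values were seen. Lower were Fbxl5, which removes an iron regulatory protein, in macrophage-like (107 to 66.1 CPM, log2 -0.70) and NK cell-like nuclei (59.3 to 39.4 CPM, log2 -0.59), and Aco1, itself an iron regulatory protein, in the same classes (log2 -0.75 and -0.90). The iron importer Slc11a2 was called lower in cDC2-like and macrophage-like nuclei (log2 -1.28 and -0.92). The mitochondrial iron carriers Slc25a37 and Slc25a28 were called lower in macrophage-like (log2 -0.80) and cDC1-like nuclei (log2 -1.10). In NK cell-like nuclei Ncoa4, the receptor that sends ferritin to the lysosome, was called lower (56.3 to 33.0 CPM, log2 -0.77), and so was the metal importer Slc39a14 (log2 -0.71, -1.56 to 0.11). Iscu, which serves iron-sulfur cluster assembly, was called higher in T cell-like nuclei (log2 1.25).

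Chromatin at these genes differed less between the days than RNA. Accessibility was the number of ATAC fragments in the shared regions within 10 kb of a start site, per 1000000 fragments of the class and day (fragment CPM). Of the 72 pairs, 63 had 50 fragments or more, and 1 was called higher (Alad in nonclassical monocyte-like nuclei, 27.5 and 47.5 fragments, log2 0.60, -0.11 to 1.32) and 0 lower, with a median log2 ratio of -0.03. Over all genes, 1.31% of 133822 pairs were called higher and 3.30% lower, against 5.98% and 14.6% of the RNA pairs. Fewer calls in chromatin than in RNA were thus not particular to these genes. Windows of Alas1, Alad, Urod and Ftl1 also hold start sites of other genes, which for Ftl1 is Bax.

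**Figure D3:**
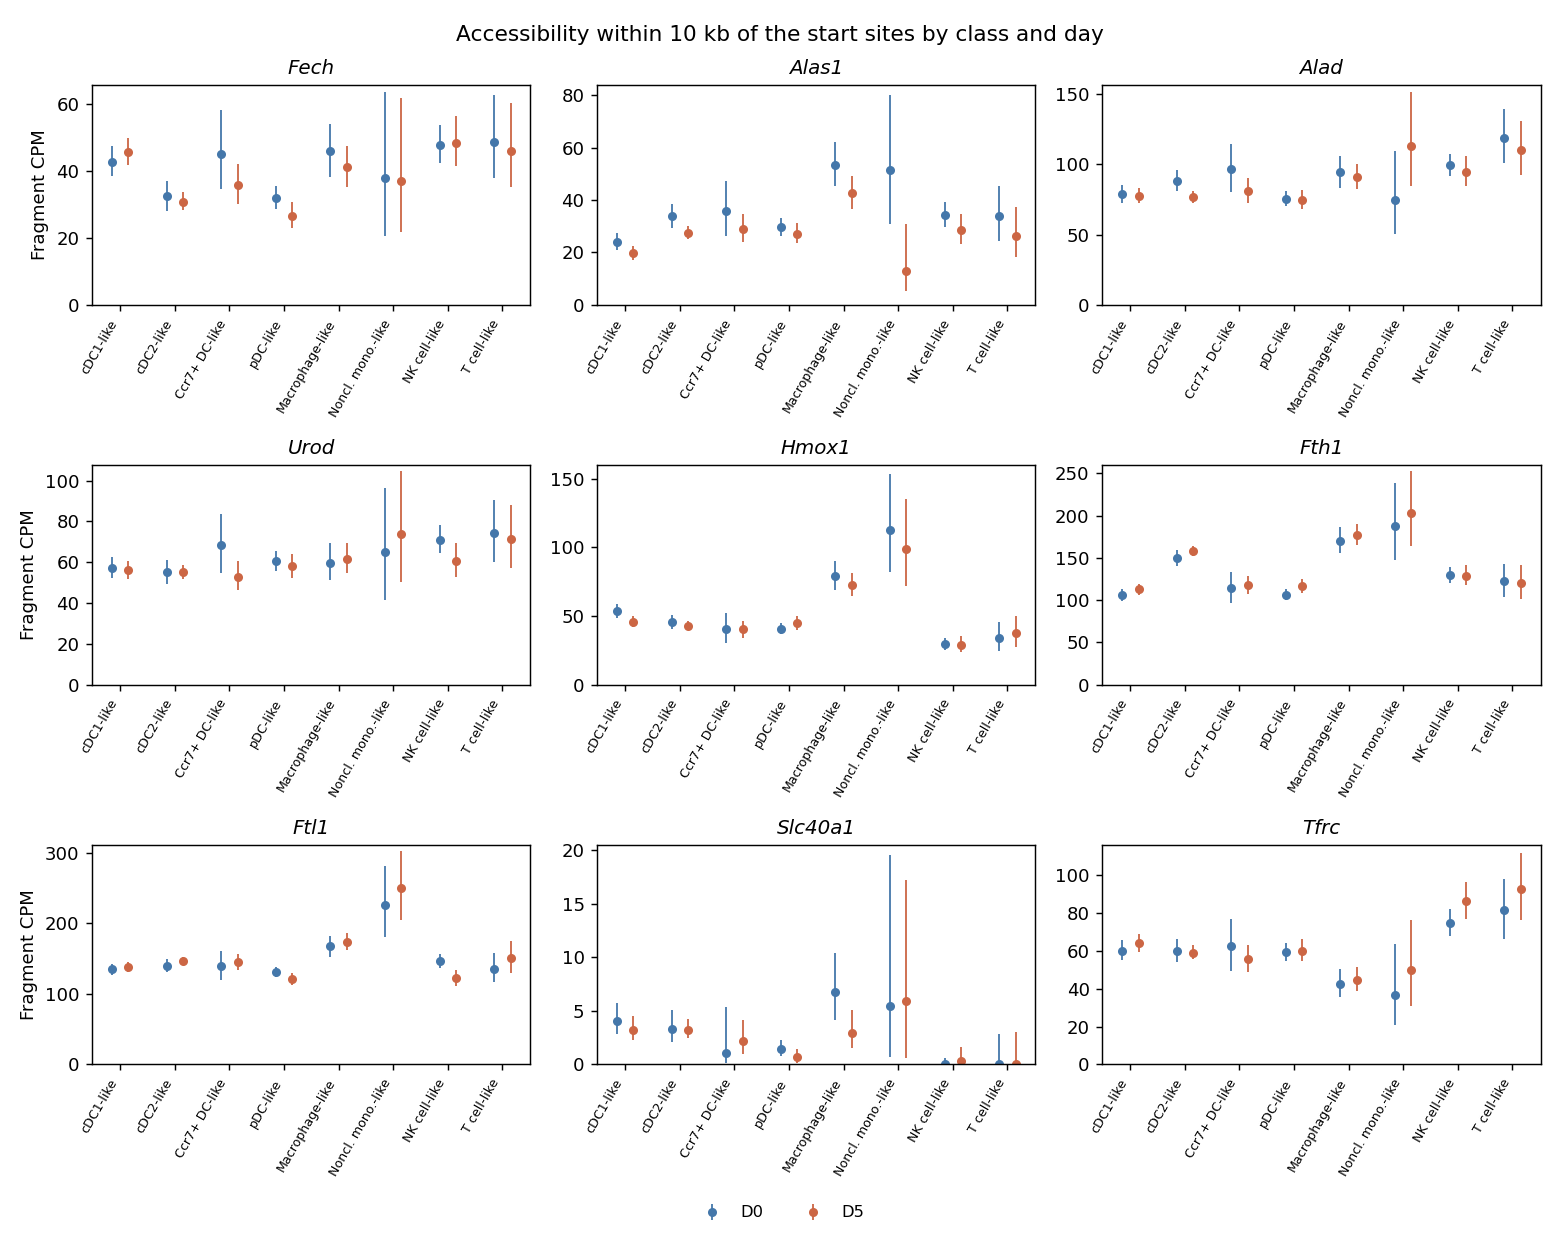
Accessibility within 10 kb of the start sites, in fragment CPM, at D0 (blue) and D5 (red) in the 8 classes, with exact 95% Poisson intervals. The windows of Hmox1, Fth1 and Ftl1 were highest in nonclassical monocyte-like and macrophage-like nuclei at both days, and no window was called lower at D5.

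The Hmox1 window, chr8 with the start site at 75093621 on the plus strand (mm10), held no start site of another gene. In macrophage-like nuclei it was at 78.9 fragment CPM at D0 and at 72.5 at D5 (log2 -0.12, -0.36 to 0.13), while the RNA was 1.62 higher on the log2 scale. Nonclassical monocyte-like nuclei had 112 and 98.7 fragment CPM, and NK cell-like nuclei, the lowest, 29.4 and 28.8. The region over the start site (75093194 to 75094101) differed little between these classes, with 23.5 and 24.1 fragment CPM in macrophage-like and 19.4 and 21.3 in NK cell-like nuclei. The upstream regions did differ. At 3.84 kb upstream (75089318 to 75090239), macrophage-like nuclei had 21.5 and 17.4 fragment CPM, cDC1-like 18.4 and 15.8, pDC-like 16.4 and 17.7, cDC2-like 14.4 and 13.4, and NK cell-like nuclei 1.52 and 1.74. At 7.33 kb upstream (75085838 to 75086737), macrophage-like nuclei had 15.8 and 11.1, nonclassical monocyte-like nuclei 24.3 and 21.4, NK cell-like nuclei 1.44 and 0.580, and pDC-like nuclei 0.389 and 0.941 fragment CPM. At 9.63 kb upstream (75083540 to 75084436) macrophage-like nuclei held 54 and 87.5 fragments (log2 0.14, -0.36 to 0.66) and NK cell-like nuclei 41.5 and 18 (log2 -0.43, -1.33 to 0.38). The region 3.84 kb upstream was thus open at both days also in dendritic classes whose Hmox1 RNA was low (at most 9.02 CPM). The region at 7.33 kb was highest in the classes with the highest Hmox1 RNA.

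**Figure D4:**
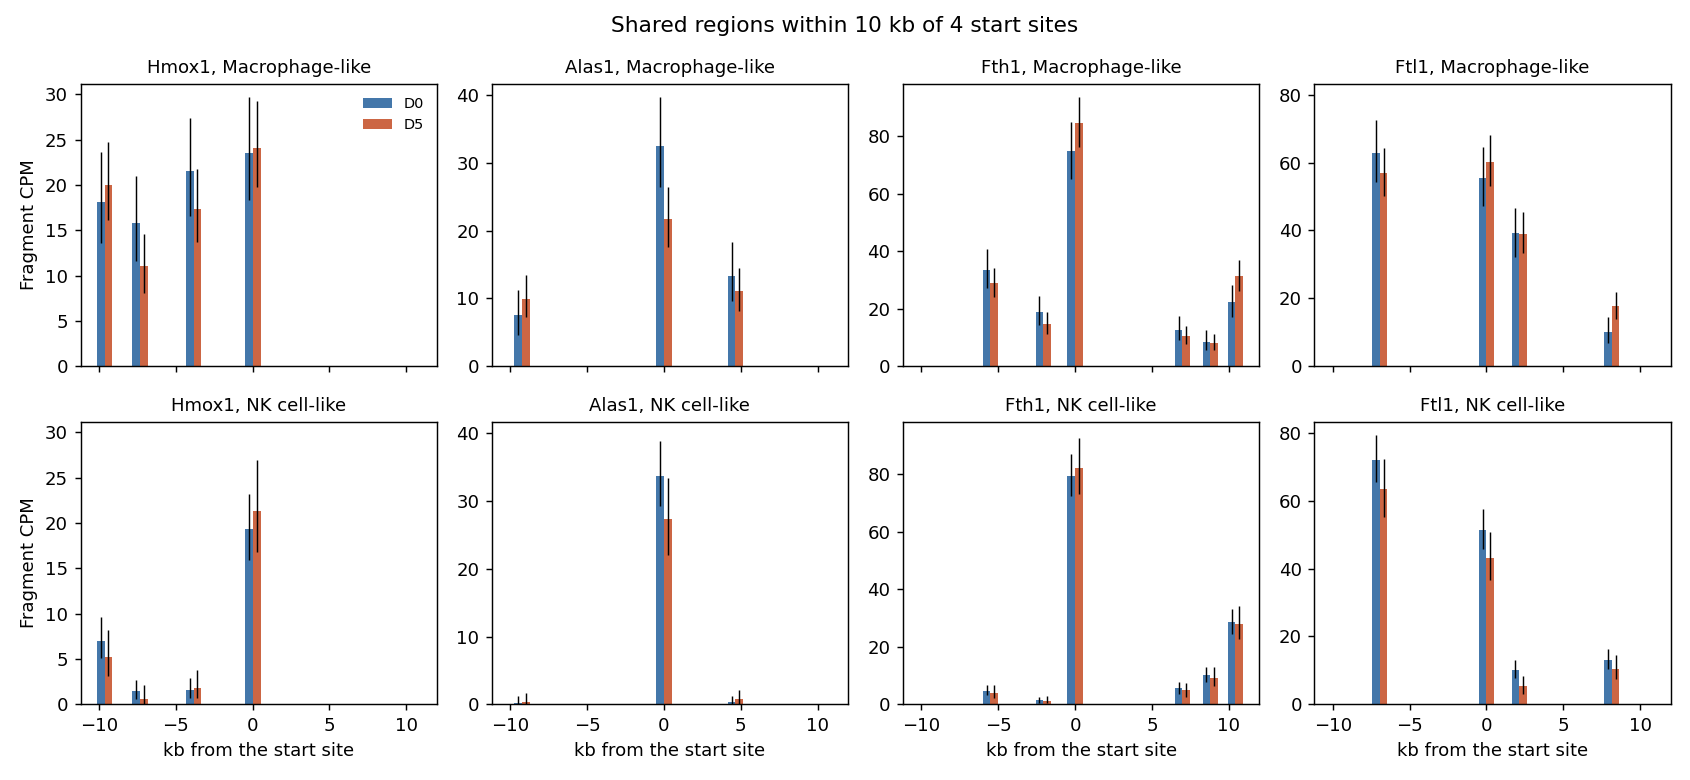
Shared regions around the start sites of Hmox1, Alas1, Fth1 and Ftl1 in macrophage-like (top) and NK cell-like nuclei (bottom), by distance from the start site in kb (upstream negative) and fragment CPM at D0 and D5, with exact 95% Poisson intervals. The start-site regions were open in both classes, while the regions upstream of Hmox1 and the outer regions of Alas1 were higher in macrophage-like than in NK cell-like nuclei. Other classes are not drawn, and the upstream region nearest the Hmox1 start site was also open in dendritic classes.

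Accessibility of Alas1 (chr9, minus strand) was lower at D5 in each of the 7 classes with 50 fragments or more, with log2 ratios from -0.38 to -0.12. In macrophage-like nuclei the window was at 53.4 and 42.7 fragment CPM (log2 -0.32, -0.63 to -0.00). The region over the start site (106247461 to 106248359) was at 32.6 and 21.7 (97 and 95 fragments, log2 -0.58, -1.01 to -0.16). With a window of 2 kb this pair was called lower (log2 -0.59). Regions 4.66 kb inside the gene and 9.24 kb upstream were at 13.3 and 11.1 and at 7.56 and 9.93 fragment CPM in macrophage-like nuclei, and below 1 in NK cell-like nuclei.

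At the ferritin genes the start-site regions were open to a like degree in all classes. That of Fth1 (chr19, 9982277 to 9983142, plus strand) was at 74.7 and 84.4 fragment CPM in macrophage-like and 79.4 and 82.2 in NK cell-like nuclei. The window of Fth1 in macrophage-like nuclei was at 171 and 177 (log2 0.06, -0.10 to 0.22), and that of Ftl1 at 167 and 174 (log2 0.05). A region 8.15 kb downstream of the Ftl1 start site (chr7, 45451046 to 45451951) was at 10.1 and 17.6 in macrophage-like nuclei (30 and 77 fragments, log2 0.80, 0.18 to 1.46), while its interval included 0 in the other 7 classes. Among 33 shared regions in 8 classes some intervals leave 0 through counting error alone. The Ftl1 window also holds the start site of Bax. At Slc40a1 (chr1) the only shared region, over the start site, held 20 and 13 fragments in macrophage-like nuclei (6.72 and 2.97 fragment CPM), the opposite direction to its RNA.

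Tfrc windows did not follow its RNA across classes: pDC-like nuclei were at 59.5 and 60.2 fragment CPM, close to cDC1-like (60.2 and 64.0) and below NK cell-like nuclei (74.7 and 86.5). Fech windows were highest in T cell-like (48.7 and 46.0) and NK cell-like nuclei (47.7 and 48.4), with intervals that overlapped those of macrophage-like, Ccr7+ DC-like and cDC1-like nuclei. The order of these classes is therefore not settled.

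**Figure D5:**
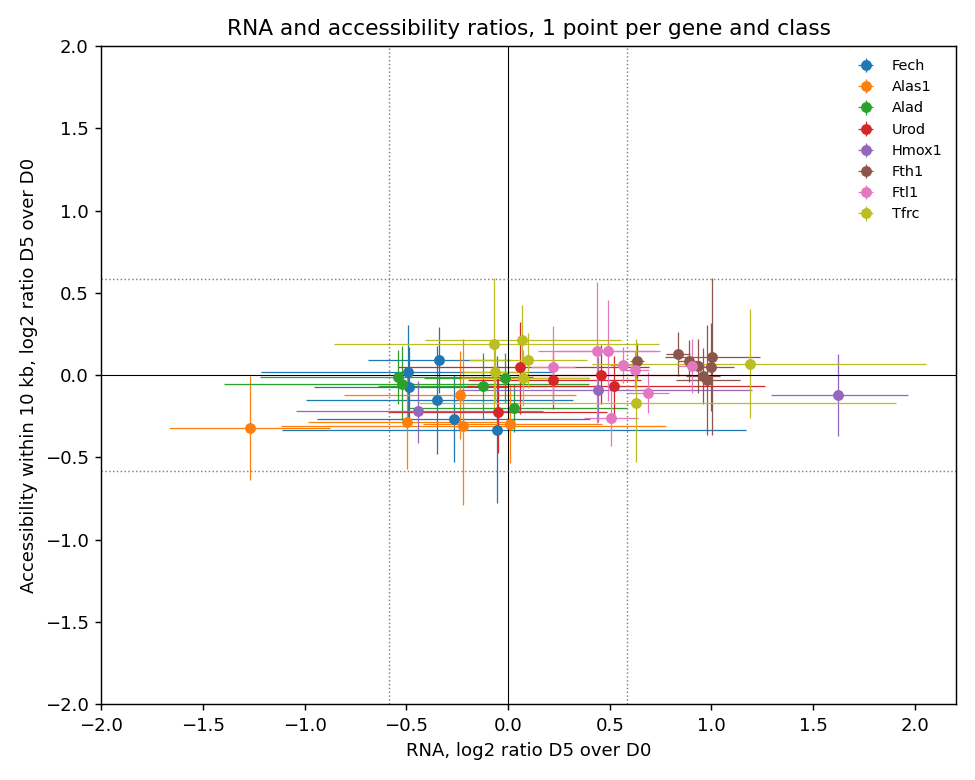
Log2 ratio of D5 to D0 of RNA (horizontal) against that of accessibility within 10 kb of the start site (vertical), 1 point for each gene and class with 50 counts or more in both. Bars are exact 95% intervals for counting error and dotted lines mark 1.5-fold; the RNA ratios run from -1.27 to 1.62, while the accessibility ratios all lie between the dotted lines.

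For the called genes with a RefSeq start site whose 250 upstream bases lie inside a shared region, these bases (GRCm38.p6, the outermost start) are shown, so that the sequence under the measured accessibility can be read. RefSeq windows were searched for 6 of the 9 genes, and not for Fech, Hmox1 and Slc40a1. On both strands, 4 motifs were searched over 32817 such windows: the core of the antioxidant response element (TGACNNNGC, in 10.2% of windows), the E-box CACGTG (6.02%), the TATA box TATAAA (12.4%) and CCAAT (33.8%), the last added after the sequences had been read. Capitals mark CCAAT, which reads ATTGG where it lies on the other strand.
Alas1: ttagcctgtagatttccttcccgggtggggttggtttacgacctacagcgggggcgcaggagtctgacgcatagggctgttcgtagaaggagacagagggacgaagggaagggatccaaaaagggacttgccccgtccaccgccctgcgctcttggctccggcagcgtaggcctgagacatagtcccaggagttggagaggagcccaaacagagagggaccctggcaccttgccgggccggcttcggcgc
Fth1: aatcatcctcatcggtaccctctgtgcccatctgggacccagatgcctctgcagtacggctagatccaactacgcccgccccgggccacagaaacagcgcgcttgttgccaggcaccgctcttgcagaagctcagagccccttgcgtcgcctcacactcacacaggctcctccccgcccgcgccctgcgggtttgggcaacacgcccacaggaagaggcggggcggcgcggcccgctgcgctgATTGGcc
Ftl1: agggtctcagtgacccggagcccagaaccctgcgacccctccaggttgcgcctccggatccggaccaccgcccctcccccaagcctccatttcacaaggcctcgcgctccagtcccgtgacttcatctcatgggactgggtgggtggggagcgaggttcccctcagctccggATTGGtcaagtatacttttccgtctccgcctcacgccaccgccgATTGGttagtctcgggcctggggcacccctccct
Tfrc: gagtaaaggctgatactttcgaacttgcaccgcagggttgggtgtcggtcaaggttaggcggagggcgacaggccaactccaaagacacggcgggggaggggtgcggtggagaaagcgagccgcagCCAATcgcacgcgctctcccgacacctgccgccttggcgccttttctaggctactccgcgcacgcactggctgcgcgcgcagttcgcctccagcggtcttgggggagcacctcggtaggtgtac

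The Alas1 window (chr9:106247955-106248204, minus strand) held none of the motifs. That of Fth1 (chr19:9982396-9982645, plus strand) held CCAAT on the other strand 7 bases before the start, that of Ftl1 (chr7:45459887-45460136, minus strand) held it on the other strand 78 and 34 bases before, and that of Tfrc (chr16:32608646-32608895, plus strand) on the same strand 124 bases before. No window of the 6 genes held the antioxidant response element core, and Hmox1 was not among the genes searched. The E-box was found at Alad and Urod, whose RNA was called in no class.

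Across the 16 sums of 8 classes and 2 days, and over 6263 genes, the 3 genes whose levels were most like those of each gene were found by Pearson's r. These are descriptions, since the sums share libraries. Hmox1 was most like Ifi204, Apoe and C5ar1 (r 0.95, 0.95 and 0.94), and Slc40a1 was most like C1qa, Mertk and C1qb (0.85, 0.81 and 0.81). The values for Slc40a1 rest on sums of 0 to 6 UMIs, apart from the 44 of macrophage-like nuclei at D5. For Fth1 the nearest were Ifi27l2a, Ms4a6d and Ms4a4c (0.95, 0.93 and 0.92), and for Ftl1 they were Ninj1, Slc7a11 and Gsto1 (0.91, 0.89 and 0.89). Alas1 was most like Ly6i, Lpl and Fn1 (0.88, 0.85 and 0.85), and Tfrc was most like Bzw2, Gna11 and Rpgrip1 (0.93, 0.93 and 0.91).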

How the data were processed

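RNA and open chromatin were measured in 1 library per day (D0 and D5), so the 4 samples are the layers of 2 libraries. The authors made the deposited matrices with Cell Ranger ARC 2.0.2 for both layers together, per the labels on build mm10, and with software version 6.0.2 for the RNA matrices, per the file headers. All deposited values are raw counts: UMIs per gene for called barcodes in the RNA matrices, and UMIs and transposase cut sites per peak for all barcodes in the joint matrices. Peaks were called in each library on its own. Whether intronic reads were counted, and with which strand setting, is not given in the sources used here. The joint matrix of D5 carries no barcodes here, so the nuclei of both layers were matched through their gene counts, which had to be the same at every gene (16260 of 16260 barcodes at D0 and 27873 of 27873 at D5). Cut sites were divided by 2 to give fragments.

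Nuclei below 1000 UMIs or above 10% mitochondrial UMIs were dropped, which left 14278 and 26633. Doublets were scored per library with the Scrublet method in scanpy 1.11.5 and removed at 0.2 or above, a value set after the scores were seen (3298 and 6799 nuclei, 23.1% and 25.5%). Nuclei of both libraries were clustered together (2000 variable genes, 30 components, 15 neighbours, Leiden resolution 1), without the genes reported here and their pathway lists. A cluster was named from marker lists when at least 3 markers were raised 2-fold and the next class reached at most 0.7 of its share of markers, or when its class alone supplied at least 3 of the 10 leading genes. The figure of 0.7 was set with the clusters in view, and classes with under 50 nuclei at a day were not compared. Names therefore end in "-like".

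UMIs were summed per class and day and scaled to CPM. Fragments were summed over regions overlapped by peaks of both libraries, in nuclei with at least 500 fragments. Intervals are exact (Poisson for a level, conditional binomial for a ratio, binomial for a share) and, since 1 library stands for each day, no p-value was computed. Free RNA was taken from barcodes with 1 to 100 UMIs. Only the call rule and the ratio intervals were tried on simulated data, which were Poisson sums as the intervals assume. They leave out the clumping of UMIs in single nuclei, and clustering, naming, doublet removal and free RNA were not simulated. The members, marker lists and pathway lists were chosen with earlier results of these data known. All 9 genes are named. Of each of the 3 pathway lists every gene is counted, and named are genes called in the same direction in at least 3 classes and the 3 other genes of the highest median level. For likeness, the 3 genes with the highest Pearson's r of log2(CPM + 1) over class and day sums of at least 100000 UMIs are named, among genes that reach 50 CPM in 1 of them. Genes named outside this rule are marked in the text, and 2 genes of these lists are counted but not reported here by name. Alternatives covered scaling (TMM factors of edgeR 4.0.16, median ratio), the count minimum, doublets, depth, mitochondrial share, resolution, free RNA, the window around start sites and, added after seeing the data, 5 alternatives on free RNA and on which nuclei entered. Python 3.11.15, scipy 1.17.1 and R 4.3.3 were used.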

Additional observations from a re-analysis of the deposited data

Results flagged for a closer look

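Within 10 kb of the start sites, 6 peaks were called in the library of D5 alone, and none in that of D0 alone, so they could not be compared between the days. They lay at Alas1 (1 peak, 8.09 kb inside the gene), Alad (2), Ftl1 (1, 1.33 kb upstream, with 1285.5 fragments in called nuclei) and Tfrc (2). Peaks were called separately in each library, and the part of sequencing depth in this was not tested.

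In classes too small to be compared, 2 of the genes were well above their level in free RNA. In the endothelial-like nuclei, which number 30 at D0 and 4 at D5, Slc40a1 was at 81.7 CPM at D0 and Alas1 at 155 CPM at D5. Both values rest on a few UMIs.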

How the results depend on the processing

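No paired analysis was possible because each day has 1 library and the result comes from no test. The 15 pairs called higher in RNA became 22 with TMM factors and 20 each with median ratios or without the count minimum, 11 with free RNA at its upper limit and 4 of 63 with free RNA estimated from hepatocyte transcripts. That estimate exceeded 100% of the macrophage-like UMIs, so it gave no value there. The remaining alternatives gave 13 to 16. The 1 pair called lower became 5 without the minimum, 4 with free RNA from hepatocyte transcripts, 3 with free RNA at its upper limit, and 2 with doublets kept, with nuclei thinned to 1000 UMIs or without hepatocyte marker nuclei. In accessibility, the 1 pair called higher became 0 with a 2-kb window or with regions given to the nearest start site and 3 without the minimum, and the 0 called lower became 1 with a 2-kb window or with doublets kept and 3 without the minimum. Directions turned for Fth1 in pDC-like nuclei (-0.28, free RNA at its upper limit), for the 4 pairs called lower with free RNA from hepatocyte transcripts, which were Fth1 in NK cell-like nuclei (-0.85) and, with no ratio because D5 was left at 0, Fth1 in cDC1-like and pDC-like and Ftl1 in pDC-like nuclei, and Tfrc in Ccr7+ DC-like nuclei (-0.70, thinned to 1000 UMIs). Beyond the subtractions themselves and the thinner sums, the cause was not tested. With 1 library per day, no alternative speaks to the spread between mice, and for genes under about 10 CPM the counting error is larger than a 1.5-fold difference in most classes. The alternatives of free RNA at its upper limit and without hepatocyte marker nuclei, and those without shared barcodes, Kupffer cell genes or the smaller cluster, were chosen after seeing the data.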

Other observations

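Hmox1 in macrophage-like nuclei was unevenly spread at D5. The 28 nuclei of D5 with a UMI of a Kupffer cell gene held Hmox1 at 604 CPM and Slc40a1 at 234 CPM, whereas the other 1362 held Hmox1 at 153 CPM and Slc40a1 at 6.29 CPM. Spic was at 86.3 CPM in the former, on 7 UMIs, and at 42.0 CPM in the latter. The smaller of the macrophage-like clusters, with 99 nuclei at D0 and 15 at D5, held Slc40a1 at 24.0 and 354 CPM on 4 and 12 UMIs, and no UMI of Spic. Tfrc also varied inside classes: among pDC-like nuclei the smaller cluster was at 364 CPM at D0 and 387 CPM at D5.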
